A study of Homo sapiens with 12 samples.

Results

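The genes described here are 10 members of the Notch pathway: the receptors NOTCH1, NOTCH2 and NOTCH3, the ligands JAG1, JAG2 and DLL1, the receptor-modifying enzyme LFNG, the DNA-binding factor RBPJ and the target genes HES1 and HEY1. They were chosen by name, as all probe sets that the platform annotation gives to 1 of these symbols. The list was made with earlier results of these data known, so its shares against all probe sets are descriptions only. A probe set is the group of short probes that reads 1 transcript end on the array. The rule found 28 probe sets with a single gene name, of 54675 in the table, and 1 more that names NOTCH2 together with its partial copies. Of the 28, 22 passed the filter on low values and stood for 9 of the 10 genes. The filter was a mean over the 12 arrays above 5.46 log2. The lowest member above it was a JAG1 probe set at 5.89 and the highest below it a NOTCH1 probe set at 5.22.

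The human breast cancer line MDA-MB-231, which lacks hormone receptors and has mesenchymal traits, was transfected at 33 nM with 1 of 2 small interfering RNA (siRNA) mixes against YAP and TAZ or with a control siRNA. The groups were siYAP/TAZ mix 1, siYAP/TAZ mix 2 and siControl, with 4 biological replicates each (A to D), all grown in serum-containing medium and collected on day 4 after transfection on day 2. YAP (gene YAP1) and TAZ (gene WWTR1) are transcriptional coactivators restrained by the Hippo kinases, and the series asks how their loss changes gene expression. All 12 samples come from 1 line, and each mix lowers both genes at once, so that the part of each cannot be told apart.

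Notch receptors sit at the cell surface and are switched on by Jagged or Delta ligands on a neighbouring cell. Binding lets ADAM proteases and then the gamma-secretase complex cut the receptor, whose inner part enters the nucleus and turns RBPJ from a repressor into an activator together with MAML proteins. HES1 and HEY1, which encode repressors of the basic helix-loop-helix class, are the standard targets. In the mammary gland the pathway is known for its part in luminal cell fate, and in liver JAG1 is known as a gene that YAP raises.

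YAP1 kept 12.4% of its control level with mix 1 and 11.9% with mix 2, and WWTR1 kept 19.8% and 18.3% (brightest probe sets, n = 4 arrays per group). Between the mixes these levels differed by -0.06 log2 for YAP1 (95% interval -0.355 to 0.23) and -0.12 for WWTR1 (-0.33 to 0.10), and neither difference passed. Among the dimmer probe sets the difference of mix 2 from mix 1 passed for both of YAP1, at -0.20 (adjusted p = 0.0173) and -0.475 (adjusted p = 0.0288), and for 1 of 2 of WWTR1, at 0.275 (adjusted p = 0.0488), so that YAP1 was lower with mix 2 in 2 of 3 probe sets. The 12 array medians were 5.69 to 5.78 log2, and arrays of 1 group correlated at 0.994 to 0.998 across probe sets. The level at the 3' end of actin mRNA less that at its 5' end, a sign of RNA quality, was 1.61 to 2.24 log2 with mix 1, 1.36 to 1.83 with mix 2 and 1.38 to 1.99 with control siRNA. All 6 line markers, among them VIM and CD44, were above the filter value. Of 12 luminal epithelial markers 9 were above it too, KRT8, KRT18 and EPCAM among them, while PGR, CDH1 and FOXA1 lay below it. The mean log2 level of 8 probed leukocyte markers was 6.38 to 6.45 with mix 1, 6.54 to 6.68 with mix 2 and 5.51 to 5.67 with control. For 9 fibroblast markers it was 5.37 to 5.42, 5.59 to 5.67 and 4.90 to 5.06, and for the 12 luminal markers 8.003 to 8.08, 7.96 to 8.15 and 7.59 to 7.67. For 9 endothelial markers it was 5.49 to 5.62, 5.56 to 5.62 and 5.36 to 5.50. Above the filter value were 7 of the 8 leukocyte, 4 of the 9 endothelial and 3 of the 9 fibroblast markers. The filter is the 40th percentile of all means, so a level above it does not by itself show that a gene is expressed. PTPRC of leukocytes, CDH5 and TEK of endothelium and COL1A2 and PDGFRA of fibroblasts lay below it. Some markers had higher means with both mixes, which was not tested: LYZ averaged 9.14 log2 with mix 1, 9.18 with mix 2 and 4.96 with control, HLA-DRA 8.53, 8.92 and 6.60, PECAM1 8.62, 7.88 and 6.54, COL1A1 9.34, 8.52 and 7.04, and MUC1 8.81, 8.51 and 6.60. Others of the same lists had lower means with both mixes. CD3E averaged 6.075 log2 with mix 1, 6.065 with mix 2 and 6.173 with control, and ITGAM 5.64, 5.47 and 5.66. TIE1 averaged 4.64, 4.75 and 5.05, THY1 5.655, 5.86 and 5.99, and ESR1 6.26, 6.19 and 6.31. The list means therefore do not stand for every marker in them. The part of these markers in the results on Notch genes was not tested.

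Under mix 1, HES1 and LFNG rose at least 2-fold, JAG1, JAG2 and HEY1 rose by less, and no probe set of NOTCH1, NOTCH2 or NOTCH3 passed the test. Of the 22 tested member probe sets, 13 were higher than in control at a limma adjusted p below 0.05, or 59.1% of them, against 33.2% of all 24650 tested probe sets. Only 1 was lower, or 4.55%, against 31.7%. At least 2-fold higher were 3 probe sets, or 13.6% against 7.84%, and at least 2-fold lower none, against 7.44% of all. Groups that did not overlap were found for 12 higher probe sets and 1 lower one, where 30.5% and 29.9% of all were. That lower one was a NOTCH2 probe set that did not pass the test, and the one called lower was of RBPJ. The median log2 difference of the members was 0.35, and that of all tested probe sets 0.00. These probe sets are not independent of each other, since up to 5 of them read the same gene. In bulk RNA, a change in the share of cells that express a gene and a change in RNA per cell cannot be told apart.

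Under mix 2, LFNG rose further, HES1 and HEY1 rose, RBPJ rose, and NOTCH1 and NOTCH2 fell. Of the 22 probe sets 10 were higher, or 45.5% against 34% of all tested, and 6 were lower, or 27.3% against 32.2%. At least 2-fold higher were the 2 probe sets of LFNG, or 9.09% against 7.97%, and at least 2-fold lower none, against 8.97%. Groups did not overlap for 9 higher and 5 lower probe sets, where 31.3% and 30.9% of all were so placed. The median log2 difference was 0.14 for the members and 0.01 for all probe sets. The 4 control arrays served in both comparisons, which are therefore not independent.

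**Figure D1:**
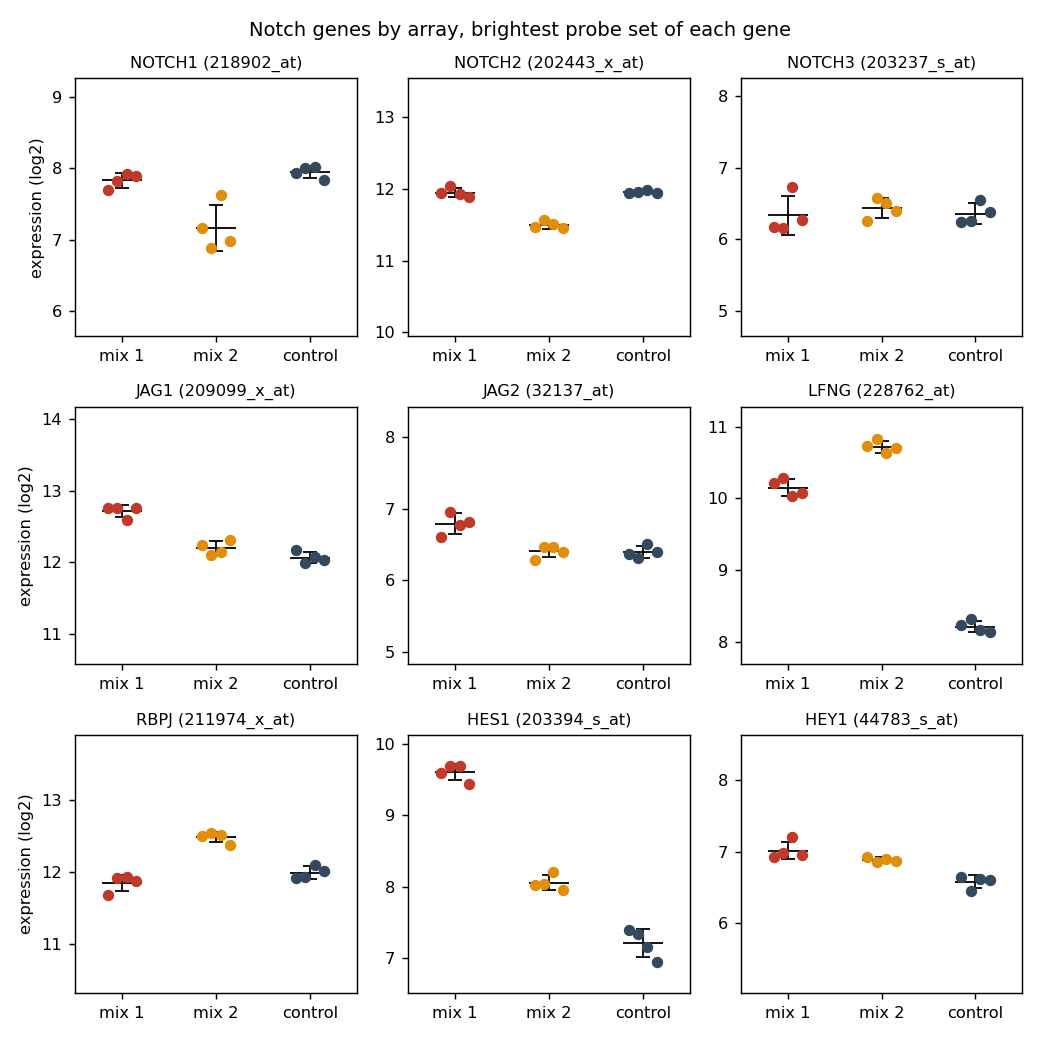
Expression (log2) of the brightest probe set of 9 Notch genes on each array, with mix 1, mix 2 and control from left to right; points are replicates A to D, the horizontal line and bar are mean and SD (n = 4), and every panel spans the same height in log2. HES1 is highest with mix 1, LFNG with mix 2, and the 4 mix 2 arrays of NOTCH1 and NOTCH2 lie below all others.

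HES1, the repressor most often used as a readout of Notch activity, had levels of 9.59, 9.68, 9.68 and 9.44 log2 with mix 1 in replicates A to D (probe set 203394_s_at). With mix 2 they were 8.03, 8.04, 8.21 and 7.95, and with control siRNA 7.39, 7.34, 7.16 and 6.95. The 3 groups did not overlap, and their order was mix 1, mix 2, control. HES1 rose by 2.39 log2 under mix 1, or 5.23-fold (SE 0.10, adjusted p = 3.67e-11), and by 0.85 log2 under mix 2, or 1.80-fold (adjusted p = 1.96e-06). The difference of mix 2 from mix 1 was -1.54 log2 (95% interval -1.75 to -1.33, adjusted p = 9.51e-09). A further probe set (203395_s_at) gave the same order, with differences from control of 1.95 for mix 1 and 0.58 for mix 2 (adjusted p = 1.55e-11 and 4.46e-06). The third HES1 probe set (203393_at) was near background at 2.94 to 3.37 log2 on all arrays and was not tested.

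LFNG encodes the Golgi enzyme lunatic fringe, which extends O-fucose sugars on Notch receptors and shifts their response from Jagged towards Delta ligands. Its levels were 10.22, 10.28, 10.03 and 10.08 log2 with mix 1, 10.73, 10.83, 10.63 and 10.70 with mix 2, and 8.23, 8.31, 8.16 and 8.13 with control (228762_at). The groups did not overlap, and here mix 2 was highest. LFNG rose by 1.95 log2 under mix 1, or 3.85-fold (SE 0.07, adjusted p = 1.73e-11), and by 2.52 log2 under mix 2, or 5.72-fold (adjusted p = 1.02e-12). With mix 2 it was higher than with mix 1 by 0.57 log2 (95% interval 0.41 to 0.73, adjusted p = 1.19e-05). The dimmer LFNG probe set (215270_at) rose by 0.58 and 1.00 log2 (adjusted p = 0.00416 and 4.28e-05), the last exactly at the 2-fold limit. Its difference between the mixes, 0.42 (adjusted p = 0.0347), did not pass without mix 1 replicate A or B or without mix 2 replicate A, B or C (0.30 to 0.41, adjusted p = 0.0696 to 0.115), nor with only those groups in the fit (adjusted p = 0.0609). Its rise under mix 2 fell below 2-fold without mix 2 replicate A, B or C or control replicate A or C, which left 1 member probe set past that limit.

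HES1 and LFNG were the 2 member genes past the 2-fold limit, so their promoters are shown, as RefSeq gives them on GRCh38.p14, 250 bases before to 50 after the start, 5′ to 3′. Capitals mark exact matches to TGGGAA, the core that RBPJ binds, or to its reverse complement TTCCCA. LFNG has 2 starts in this table.
HES1 promoter, plus strand, chr3:194135898-194136197: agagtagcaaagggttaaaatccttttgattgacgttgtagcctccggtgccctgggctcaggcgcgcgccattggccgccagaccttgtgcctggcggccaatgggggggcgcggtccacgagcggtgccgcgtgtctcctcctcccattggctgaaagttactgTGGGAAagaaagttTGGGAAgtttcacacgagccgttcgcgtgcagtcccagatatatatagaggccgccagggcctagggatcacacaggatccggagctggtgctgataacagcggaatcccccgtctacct
LFNG upstream start, plus strand, chr7:2512279-2512578: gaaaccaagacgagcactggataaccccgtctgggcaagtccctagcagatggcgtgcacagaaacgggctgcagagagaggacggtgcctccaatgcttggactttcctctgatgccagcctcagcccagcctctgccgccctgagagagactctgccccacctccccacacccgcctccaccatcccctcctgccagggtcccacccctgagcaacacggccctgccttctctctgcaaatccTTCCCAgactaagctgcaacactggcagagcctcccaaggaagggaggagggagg
LFNG downstream start, plus strand, chr7:2517613-2517912: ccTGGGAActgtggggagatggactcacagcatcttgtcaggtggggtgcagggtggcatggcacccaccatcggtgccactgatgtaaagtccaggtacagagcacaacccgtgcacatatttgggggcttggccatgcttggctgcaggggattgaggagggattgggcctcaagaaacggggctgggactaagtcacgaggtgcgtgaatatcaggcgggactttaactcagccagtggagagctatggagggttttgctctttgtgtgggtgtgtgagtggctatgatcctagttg

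The HES1 promoter held 2 matches on the same strand, which began 84 and 70 bases before the start. The upstream LFNG start had 1 match across the start and the downstream one 1 match, 248 bases before it. Of 35116 promoters of this length 24.0% held TGGGAA on either strand. GGAATG, the core that TEAD factors bind together with YAP and TAZ, or its reverse complement CATTCC, was in 14.0% of all promoters and in none of these 3 windows. The 2 motifs can overlap, since both hold GGAA. Promoters of 8 of the 10 member genes matched the table; those of HEY1 and DLL1 did not. Of these 8 genes, HES1, LFNG and RBPJ had TGGGAA in at least 1 window and none had GGAATG. RBPJ has several windows in the promoter table, and its matches lay in 1 of them. The shares of 24.0% and 14.0% are of single windows, so the count of genes cannot be set against them. A match is a string of letters in this window and not a measured site.

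HEY1, the other target gene, rose under both mixes, by no more than 0.44 log2 in either probe set. Its brighter probe set (44783_s_at) had 6.93, 6.98, 7.20 and 6.95 log2 with mix 1, 6.93, 6.85, 6.89 and 6.87 with mix 2, and 6.64, 6.45, 6.62 and 6.61 with control. All 8 knockdown arrays lay above the 4 control arrays. The rise was 0.44 log2 with mix 1 (SE 0.07, adjusted p = 7.08e-05) and 0.31 with mix 2 (adjusted p = 0.00144), and the difference of mix 2 from mix 1 was -0.13 (95% interval -0.28 to 0.02, adjusted p = 0.142). The second HEY1 probe set (218839_at) rose by 0.30 under each mix (adjusted p = 0.0149 and 0.0146). This call did not pass without control replicate D (0.25 under each mix, adjusted p = 0.053 and 0.0518) and, for mix 2, without mix 2 replicate C (0.24, adjusted p = 0.0533).

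JAG1, a ligand that binds Notch receptors on neighbouring cells, rose under mix 1. Its brightest probe set (209099_x_at) had 12.76, 12.76, 12.60 and 12.76 log2 with mix 1, 12.24, 12.10, 12.14 and 12.32 with mix 2, and 12.17, 11.99, 12.07 and 12.03 with control. The mix 1 arrays lay above all others, and the mix 2 arrays overlapped those of control. The difference from control was 0.66 log2 with mix 1, or 1.58-fold (SE 0.07, adjusted p = 8.65e-07), and 0.14 with mix 2 (95% interval -0.01 to 0.28, adjusted p = 0.0991). The difference of mix 2 from mix 1 was -0.52 log2 (95% interval -0.67 to -0.37, adjusted p = 1.75e-05).

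The probe sets of JAG1 differed among themselves. Besides the brightest, 216268_s_at, 231183_s_at and 209098_s_at rose by 0.65 to 0.71 log2 under mix 1 (adjusted p = 3.56e-07 to 1.37e-05), and all 4 were lower with mix 2 than with mix 1, at -0.46 to -0.70 log2. Under mix 2, 231183_s_at rose by 0.24 (adjusted p = 0.00573), while 216268_s_at (0.14) and 209098_s_at (-0.03) did not pass. The dimmest tested one, 229924_s_at, was at -0.04 under mix 1 (adjusted p = 0.811) and fell by 0.36 log2 under mix 2 (adjusted p = 0.0253). That fall did not pass without mix 2 replicate B (-0.23, adjusted p = 0.0862) or D, or without control replicate C or D (adjusted p = 0.0545 to 0.0719). Its difference of mix 2 from mix 1 was -0.32 (adjusted p = 0.0548), which passed without mix 1 replicate A or without mix 2 replicate A or C (-0.39, adjusted p = 0.0283 to 0.0303). With an intensity trend in the moderation, 209099_x_at (adjusted p = 0.0348) and 216268_s_at (adjusted p = 0.0466) passed under mix 2. The sixth JAG1 probe set (209097_s_at) lay at 4.15 to 4.57 log2 and was not tested.

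JAG2, the second Jagged ligand, also rose under mix 1, by less than the brightest JAG1 probe set. It had 6.60, 6.96, 6.78 and 6.82 log2 with mix 1, 6.29, 6.47, 6.47 and 6.40 with mix 2, and 6.37, 6.31, 6.51 and 6.39 with control (32137_at). It rose by 0.40 log2 under mix 1 (SE 0.08, adjusted p = 0.000469). Under mix 2 the difference was 0.01 (95% interval -0.16 to 0.18, adjusted p = 0.904). The other JAG2 probe set (209784_s_at) rose by 0.31 under mix 1 (adjusted p = 0.0072) and was at 0.03 under mix 2. With mix 2 both probe sets were lower than with mix 1, at -0.38 and -0.27 log2 (adjusted p = 0.000919 and 0.0184). For 209784_s_at this difference was lost with centred arrays (-0.24, adjusted p = 0.0534), and without mix 1 replicate B or C or mix 2 replicate A (-0.22 to -0.23, adjusted p = 0.0545 to 0.0648). The Delta ligand DLL1 was near background on every array, at 3.12 to 4.44 log2 over its 2 probe sets, and was not tested.

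NOTCH1 and NOTCH2 fell under mix 2. NOTCH1 had 7.69, 7.82, 7.92 and 7.89 log2 with mix 1, 7.17, 6.89, 7.62 and 6.98 with mix 2, and 7.94, 8.0, 8.02 and 7.84 with control (218902_at). The mix 2 arrays lay below all others, with replicate C closest to them. NOTCH1 fell by 0.79 log2 under mix 2, to 58.0% of control (SE 0.13, adjusted p = 5.75e-05), and differed by -0.12 under mix 1 (95% interval -0.39 to 0.15, adjusted p = 0.425). The difference of mix 2 from mix 1 was -0.67 (adjusted p = 0.000428). Its second probe set (223508_at) lay below the filter at 4.94 to 5.60 log2.

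All 4 tested probe sets of NOTCH2 fell under mix 2, at -0.46 to -0.75 log2 (adjusted p = 3.42e-07 to 0.000137), and were lower with mix 2 than with mix 1, at -0.45 to -0.57 log2 (adjusted p = 2.47e-06 to 0.00363). The brightest (202443_x_at) had 11.94, 12.04, 11.93 and 11.89 log2 with mix 1, 11.47, 11.57, 11.51 and 11.45 with mix 2, and 11.95, 11.96, 11.98 and 11.95 with control. The mix 2 arrays lay below all others, and those of mix 1 and control overlapped. For 202445_s_at the mix 1 arrays lay below those of control, at 6.74 to 6.84 against 6.86 to 7.14 log2. Under mix 1 the 4 differences were -0.01, -0.06, -0.18 and -0.22, and none passed (adjusted p = 0.109 to 0.891). Under other settings 2 of them passed. With the replicate letters as a block, or without mix 1 replicate B, 210756_s_at was lower under mix 1 (-0.18, adjusted p = 0.0397, and -0.28, adjusted p = 0.00701). Without mix 2 replicate B, or with only the groups compared in the fit, 202445_s_at was lower (-0.22, adjusted p = 0.0223 and 0.0147). NOTCH2 has near-identical partial copies, the NOTCH2NL genes, and probe sets of the _s_at and _x_at kind can bind transcripts of related genes. The probe set that names these copies and NOTCH2 together (227067_x_at) was not tested; it averaged 9.14 log2 with mix 1, 9.22 with mix 2 and 9.49 with control, and its knockdown arrays lay below the control arrays.

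NOTCH3 had 6.17, 6.16, 6.73 and 6.26 log2 with mix 1, 6.25, 6.58, 6.51 and 6.39 with mix 2, and 6.24, 6.25, 6.55 and 6.38 with control (203237_s_at). The 3 groups overlapped. The differences from control were -0.03 with mix 1 (95% interval -0.29 to 0.24, adjusted p = 0.875) and 0.08 with mix 2 (-0.18 to 0.34, adjusted p = 0.602). Its other probe set (203238_s_at) lay at 4.59 to 5.01 log2, below the filter.

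RBPJ, through which all Notch receptors reach DNA, rose under mix 2, while its probe sets disagreed under mix 1. The brightest (211974_x_at) had 11.68, 11.91, 11.93 and 11.87 log2 with mix 1, 12.51, 12.54, 12.52 and 12.38 with mix 2, and 11.92, 11.93, 12.10 and 12.02 with control. The mix 2 arrays lay above all others. It rose by 0.50 log2 under mix 2, or 1.41-fold (SE 0.07, adjusted p = 2.16e-05), and was at -0.15 under mix 1 (adjusted p = 0.0895, or 0.0335 with an intensity trend). Under mix 1, 207785_s_at fell by 0.31 log2 (adjusted p = 0.0142) and 229540_at rose by 0.47 (adjusted p = 0.00206). Under mix 2, 229540_at rose by 0.58 (adjusted p = 0.000366) and 207785_s_at by 0.24 (adjusted p = 0.0465). The last call did not pass on leaving out any 1 control array, mix 1 replicate D, or any mix 2 array but B (0.18 to 0.27, adjusted p = 0.0506 to 0.139), nor without the filter (adjusted p = 0.0721). With mix 2 the level was higher than with mix 1 by 0.64 for 211974_x_at (adjusted p = 3.27e-06) and 0.55 for 207785_s_at (adjusted p = 0.000327), and by 0.11 for 229540_at, which did not pass (95% interval -0.13 to 0.35, adjusted p = 0.448).

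**Figure D2:**
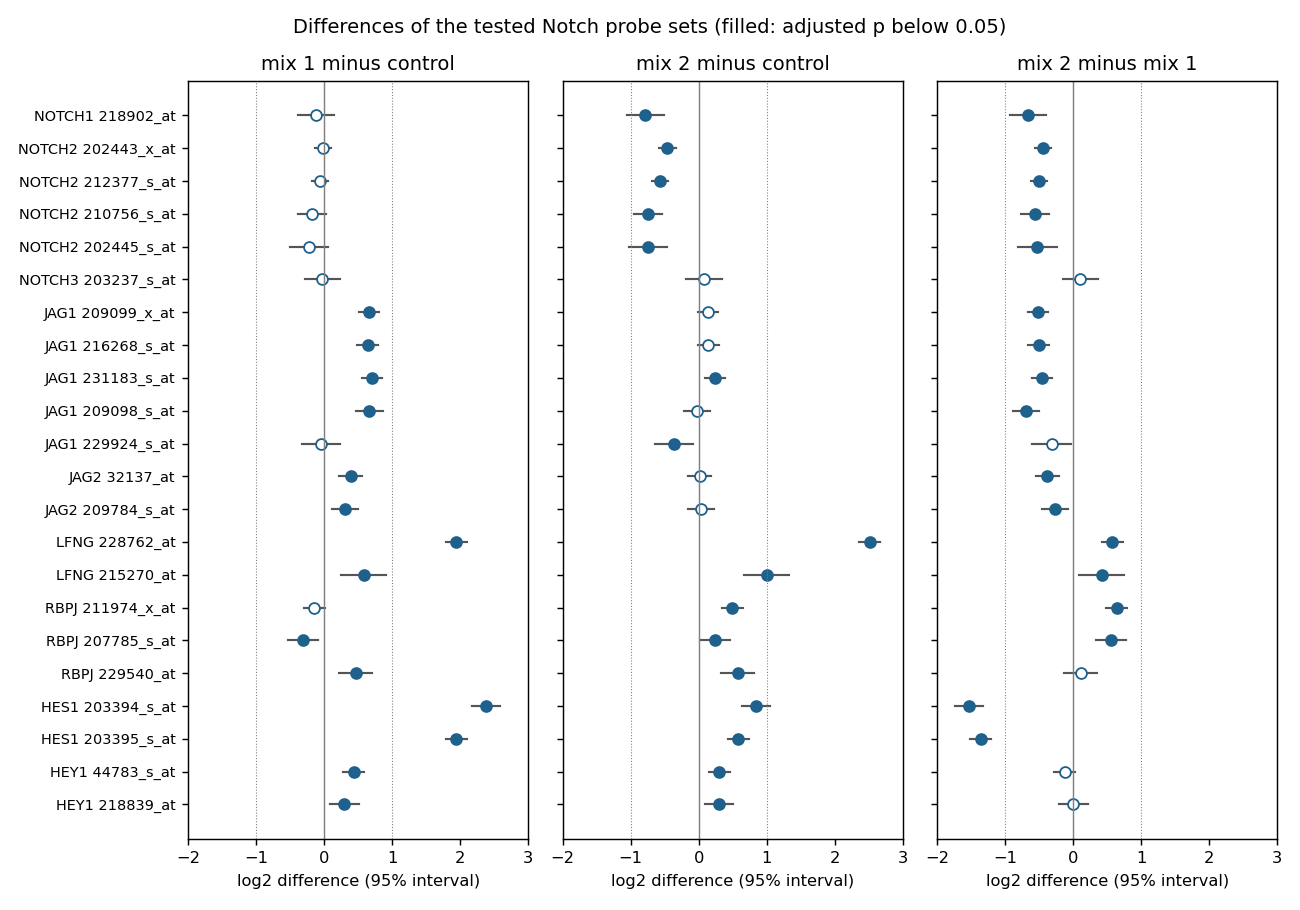
Log2 differences of the 22 tested Notch probe sets with 95% intervals, for mix 1 minus control, mix 2 minus control and mix 2 minus mix 1; filled points have an adjusted p below 0.05 and dotted lines mark 2-fold. JAG2 and 3 of 5 JAG1 probe sets pass as higher with mix 1 only, NOTCH1, NOTCH2 and RBPJ (211974_x_at) pass with mix 2 only, and HES1 and LFNG with both.

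The last comparison set the mixes against each other. With mix 2 against mix 1, 13 of 22 were lower, or 59.1%, against 25.6% of all tested probe sets, and 4 were higher, or 18.2%, against 25.8%. The 13 came from NOTCH1, NOTCH2, JAG1, JAG2 and HES1, and the 4 from LFNG and RBPJ. At least 2-fold lower were the 2 probe sets of HES1, or 9.09% against 4.11%, and none was at least 2-fold higher, against 2.27%. Groups that did not overlap were found for 13 lower probe sets, where 22.3% of all were, and for 3 higher ones, where 21.8% of all were. The median of the absolute log2 difference between the mixes was 0.51 for the members and 0.23 for all probe sets. For the changes against control it was 0.35 for the members and 0.35 for all with mix 1, and 0.41 and 0.38 with mix 2.

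**Figure D3:**
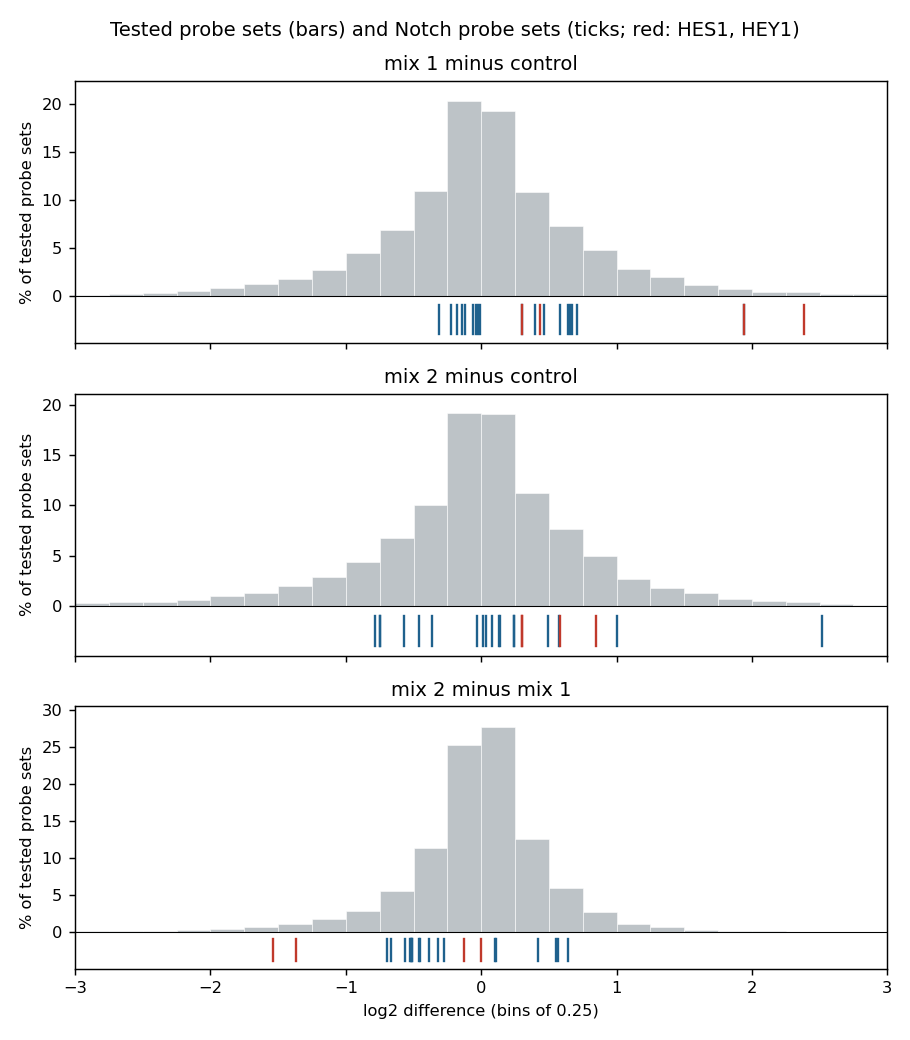
Share of the 24650 tested probe sets (percent, grey bars) by log2 difference in bins of 0.25, drawn from -3 to 3, with the 22 Notch probe sets as ticks below (HES1 and HEY1 red, the rest blue). In mix 2 minus mix 1, most Notch ticks lie left of 0.

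The genes whose pattern came closest to that of HES1 and LFNG were sought among 13216 other genes, by the root mean square difference of control-centred log2 values over the 8 knockdown arrays. For HES1 it was PCDH18, a protocadherin gene, at 2.46 log2 with mix 1 and 0.89 with mix 2 (root mean square difference 0.14). For LFNG it was NMNAT2, which encodes an enzyme of NAD synthesis, at 1.98 and 2.43 (root mean square difference 0.12). The next genes, RAB11B-AS1 (0.16) and SOBP (0.14), lay close behind, so the order is not established.

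Of 63 other genes of the pathway, 55 were tested by their brightest probe set. With mix 1, 22 were higher and 16 lower, or 40% and 29.1%, against 34.4% and 31.9% of all 13225 genes; 5 were at least 2-fold higher (8.1% of all genes) and 2 at least 2-fold lower (8.29%). With mix 2, 18 were higher and 15 lower, or 32.7% and 27.3%, against 36.3% and 31.6%; 4 were at least 2-fold higher (9.09% of all) and 5 at least 2-fold lower (9.35%). Between the mixes 12 were higher with mix 2 and 16 lower, or 21.8% and 29.1%, against 28% and 24.5%; none was at least 2-fold higher (2.63% of all) and 5 were at least 2-fold lower (3.63%). Their median log2 differences were 0.11 with mix 1 and 0.01 with mix 2, where those of all genes were 0.01 and 0.03. The receptor NOTCH4 (0.21 and -0.06) and the Delta ligands DLL3 (0.08 and 0.14) and DLL4 (0.01 and 0.01) did not pass against control under either mix.

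Of 8 tested genes for receptor cleavage, which encode proteases and subunits of gamma-secretase, 6 rose and 1 fell under mix 1, or 75% and 12.5%, against 34.4% and 31.9% of all genes. Under mix 2, 4 rose and 1 fell, or 50% and 12.5%, against 36.3% and 31.6%. APH1B, a gamma-secretase subunit, rose by 1.23 and 1.72 log2, and its partner NCSTN by 0.99 and 1.14. ADAM17, a shedding protease that can cut Notch, had 10.28, 10.36, 10.25 and 10.24 log2 with mix 1, 8.22, 8.15, 8.25 and 7.99 with mix 2, and 9.17, 9.18, 9.07 and 9.11 with control. The 3 groups did not overlap, with control in the middle. It rose by 1.15 log2 under mix 1 (adjusted p = 1.33e-09) and fell by 0.98 under mix 2 (adjusted p = 6.63e-09), a difference of -2.13 between the mixes (adjusted p = 1.09e-11). Its 2 other probe sets did the same. ADAM10, the main protease of ligand-activated Notch, rose by 0.24 and 0.61 (adjusted p = 0.00357 and 5.02e-07; named after its values were seen).

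Of 5 tested genes for enzymes that add sugars to Notch, 3 fell and none rose with mix 1, where 31.9% and 34.4% of all genes did, and 3 fell and 1 rose with mix 2, where 31.6% and 36.3% did. The mix 1 fall of MFNG, a fringe enzyme, was near the threshold (-0.30, adjusted p = 0.0474) and did not pass without the filter (adjusted p = 0.0689). POGLUT1, which puts O-glucose on the receptor, had 8.69, 8.64, 8.69 and 8.79 log2 with mix 1, 7.44, 7.05, 7.18 and 7.12 with mix 2, and 8.91, 9.07, 9.12 and 8.95 with control. The log2 differences were -0.31 under mix 1 (adjusted p = 0.00443) and -1.82 under mix 2 (adjusted p = 1.01e-10). LFNG, from the same class of enzymes, rose under both mixes, as shown above.

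Of 10 nuclear coactivators, 6 rose and 3 fell with mix 1, or 60% and 30%, against 34.4% and 31.9% of all genes. With mix 2, 5 rose and 3 fell, or 50% and 30%, against 36.3% and 31.6%, so the share that fell was near that of all genes with both mixes. The rise of CREBBP, named after its values were seen, did not pass without the filter under either mix (adjusted p = 0.0503 and 0.0513). The 3 Mastermind genes rose under both, MAML3 by 1.01 and 1.51 log2, MAML2 by 0.78 and 0.79 and MAML1 by 0.65 and 0.31; the last 2 genes were named after their values were seen. CDK8, a kinase that marks the active receptor fragment for breakdown, fell under both, at -0.40 and -2.31 log2 (adjusted p = 0.000362 and 4.49e-12). KAT2B, a histone acetyltransferase, had 10.88, 10.92, 10.54 and 10.76 log2 with mix 1, 9.31, 9.13, 9.25 and 9.52 with mix 2, and 9.87, 9.71, 9.59 and 9.65 with control. It rose by 1.07 log2 under mix 1 (adjusted p = 2.48e-07) and fell by 0.40 under mix 2 (adjusted p = 0.00244). Of 10 tested corepressor genes 4 rose and 4 fell with mix 1, or 40% each, against the same 34.4% and 31.9%, and 5 rose and 2 fell with mix 2, or 50% and 20%, against 36.3% and 31.6%. Without the filter, the rise of RITA1 with mix 1 (adjusted p = 0.0584) and the fall of CTBP1 with mix 2 (adjusted p = 0.093) did not pass. Both were named after their values were seen. TLE3, of the Groucho family that works with HES proteins, rose by 1.75 and 0.76 log2, and the difference of mix 2 from mix 1 was -0.99 (adjusted p = 4.27e-07).

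Among 11 tested genes of endocytosis and turnover, 5 rose and 1 fell with mix 1, or 45.5% and 9.09%, against 34.4% and 31.9% of all genes. With mix 2, 3 rose and 1 fell, or 27.3% and 9.09%, against 36.3% and 31.6%. NUMB, an inhibitor of Notch, rose by 0.84 and 1.07 log2 (adjusted p = 3.81e-05 and 3.01e-06). The ubiquitin ligase NEDD4 had 8.88, 8.74, 8.45 and 8.61 log2 with mix 1, 6.59, 6.53, 6.53 and 6.55 with mix 2, and 9.03, 8.98, 8.97 and 9.06 with control. It fell by 0.34 under mix 1 (adjusted p = 0.00156) and by 2.46 under mix 2 (adjusted p = 2.79e-12).

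Of 8 other tested genes known as Notch targets in some tissues, 1 rose and 4 fell with mix 1, or 12.5% and 50%, against 34.4% and 31.9% of all genes. With mix 2 none rose and 5 fell, or 62.5%, against 36.3% of all genes higher and 31.6% lower. HES4, a relative of HES1, had 5.57, 5.45, 5.67 and 5.55 log2 with mix 1, 5.04, 5.53, 5.55 and 5.05 with mix 2, and 6.41, 6.41, 6.31 and 6.43 with control. It fell by 0.83 log2 under mix 1 (adjusted p = 1.13e-05) and by 1.10 under mix 2 (adjusted p = 5.66e-07), and 1 mix 1 array and 2 mix 2 arrays lay below the filter value. SNAI2, a mesenchymal transcription factor, fell under both, at -2.07 and -1.35 (adjusted p = 9.7e-12 and 5.22e-10), and so did MYC, at -1.27 and -0.94. NRARP, a feedback inhibitor that Notch induces, was at -0.33 and -0.57 (adjusted p = 0.00447 and 5.45e-05; named after its values were seen). The 1 gene that rose with mix 1 was SOX9, by 0.84 (adjusted p = 2.61e-07), also named after its values were seen. HES7 (-0.03 and -0.17) and HEYL (-0.10 and 0.02) did not pass.

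**Figure D4:**
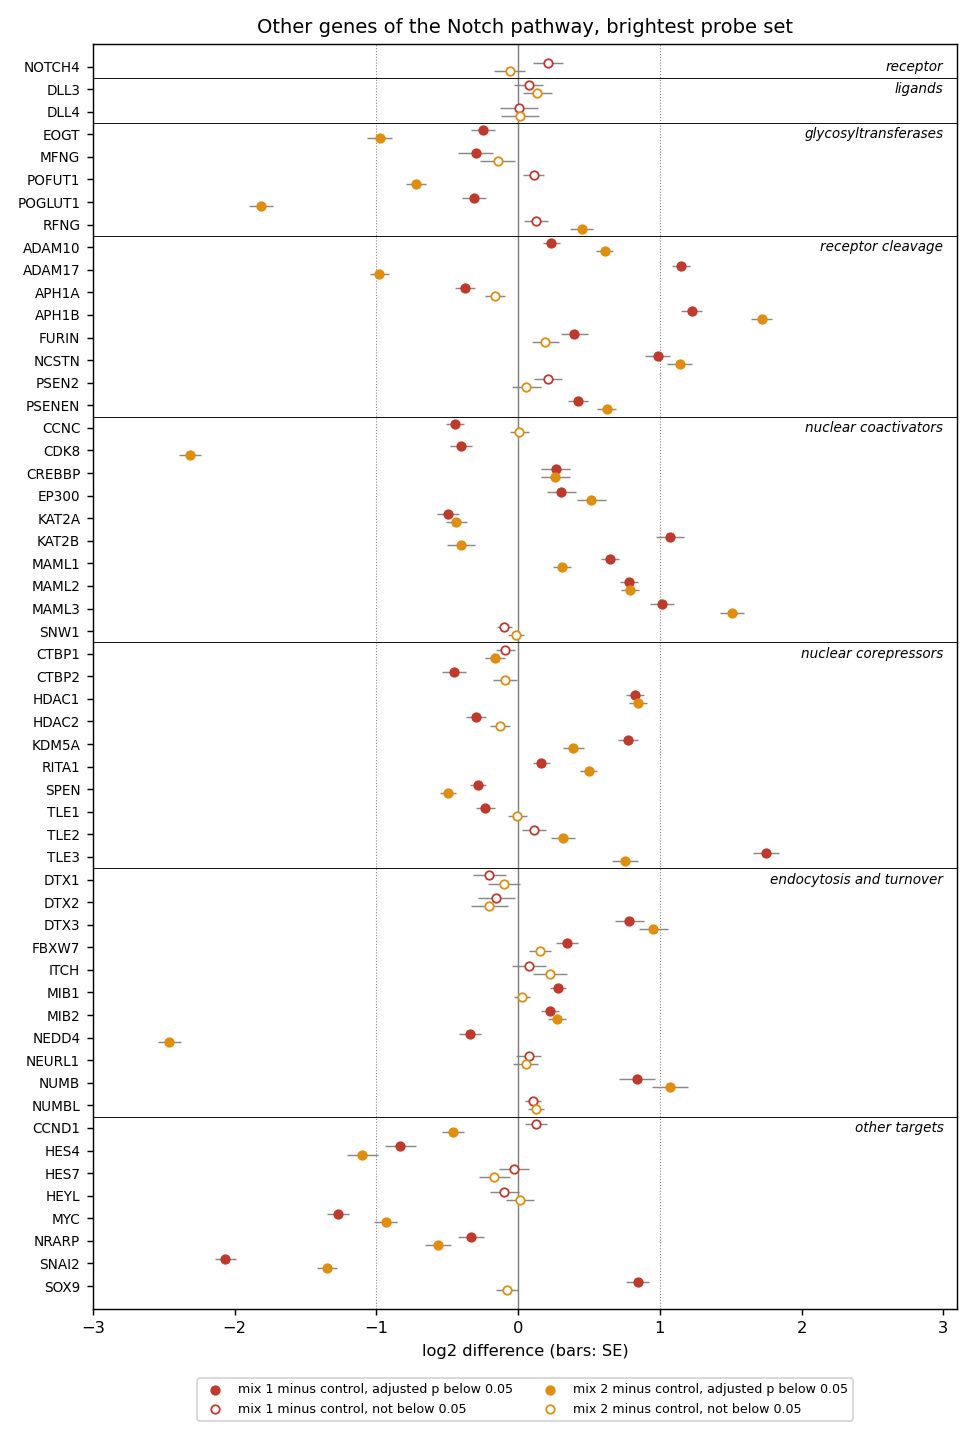
Log2 differences (bars are SE) of 55 other Notch pathway genes by their brightest probe set, grouped by role, for mix 1 minus control (red) and mix 2 minus control (orange); filled points have an adjusted p below 0.05. ADAM17 and KAT2B lie on opposite sides of 0 with the 2 mixes, and CDK8, NEDD4 and POGLUT1 lie furthest left with mix 2.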

How the data were processed

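RNA from 12 MDA-MB-231 cultures was hybridised to Affymetrix U133 Plus 2.0 arrays. The table that the authors deposited holds log2 expression values for each array. Per the submitters' processing notes the method was RMA; its software and options were not stated there. RMA in its usual form gives all arrays 1 distribution, so a shift of all genes together would not be visible. The platform annotation gave 1 gene symbol to 41097 of 54675 probe sets, and control probe sets were left out. Probe sets were kept where their mean level exceeded the 40th percentile of all means. On these 24650, limma (version 3.58.1, R 4.3.3) was fitted with 3 group means and default eBayes, and two-sided p-values were adjusted by the Benjamini-Hochberg method over all probe sets of a comparison. A gene stood by its brightest probe set. Arrays carry no read depth; their number limits the precision. The fit was tested on simulated data.

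The members, the pathway lists and the rules for naming genes were chosen with earlier results of these data known. Named beyond the members were YAP1, WWTR1, pathway genes past the threshold with a 2-fold change under either mix, and the gene nearest in pattern to each member past that limit; a few more are named to make up a small count or to complete a role. Whether replicate letters pair the arrays was checked from each array's deviation from its group mean. Same-letter arrays of mix 1 and control correlated at 0.352 to 0.429, which met the rule for pairs, while those of mix 2 and control lay between 0.00 and 0.10. Between mix 1 and control, letter B matched an array of letter A better (0.428) than its own letter (0.352). The pairing rests on these values and not on the labels. Some listed pathway genes are not reported here. The alternatives were other filters, centred arrays, fewer groups, a replicate block, an intensity trend, no shared probe sets and leaving out each array.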

Additional observations from a re-analysis of the deposited data

Results flagged for a closer look

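Of 132 groups of 4 arrays checked over the probe sets named here, 6 had an array set apart from the others. The rule was a gap above 0.829 of the range of the group, so a gap that is small in log2 can be marked. Chance alone marks about 1 group in 20. The mix 2 replicate B array of NOTCH2 (212377_s_at) was at 10.60 log2 where the others were all at 10.63. For NOTCH2 (210756_s_at), mix 1 replicate B was at 8.56 and the others at 8.16 to 8.21. For JAG1 (209099_x_at), mix 1 replicate C was at 12.60 and the others at 12.76. For HEY1 (44783_s_at), control replicate B was at 6.45 and the others at 6.61 to 6.64. For HES4, control replicate C was at 6.31 and the others at 6.41 to 6.43. For SNAI2, mix 2 replicate D was at 8.23 and the others at 8.43 to 8.46.

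The member probe sets and the brightest probe set of each other named gene were searched for opposite changes from control with the 2 mixes. For 3 of them both changes passed the threshold in opposite directions, and the test between the mixes passed. The dimmer ADAM17 probe sets, outside this search, did the same. The share of all tested probe sets with such opposite calls is not given here. The difference of mix 2 from mix 1 was 0.55 log2 for RBPJ (207785_s_at), -2.13 for ADAM17 and -1.47 for KAT2B.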

How the results depend on the processing

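Of the values of the tested member probe sets under the alternatives, 1131 kept their direction and their side of the threshold, 26 lost the call, 10 gained one and 12 turned direction, the last all without 1 array and for differences that did not pass. Without 1 array these ranged over -0.04 to 0.01 for NOTCH2 202443_x_at, -0.158 to 0.04 for NOTCH3 203237_s_at and -0.106 to 0.0342 for JAG1 229924_s_at under mix 1. Under mix 2 they ranged over -0.0558 to 0.0075 for JAG1 209098_s_at, -0.0158 to 0.0517 for JAG2 32137_at and -0.0042 to 0.0867 for JAG2 209784_s_at; for YAP1 between the mixes the range was -0.223 to 0.0333. With a filter at the 60th percentile, which left 13 member probe sets, 7 were higher under mix 1 and 6 under mix 2, with 1 of these at least 2-fold. Without shared probe sets, those of the _s_at and _x_at kind, 6 members were left. All tested probe sets of HES1, JAG1, NOTCH2 and NOTCH3 were of that kind, so this setting could not check those genes. Of the 6 left, 5 were higher and 0 lower under mix 1, with 1 at least 2-fold higher. Under mix 2, 4 were higher and 1 lower. Between the mixes 2 of these were higher and 2 lower, with 0 at least 2-fold lower. For the other pathway genes, 1 was at least 2-fold lower under mix 1 in that setting. The shares of all probe sets called with the stricter filter or without shared probe sets are not given here. The counts in these settings can therefore not be set against all probe sets. The count of member probe sets lower under mix 1 was 2 with only the groups compared in the fit, 2 with the replicate block, 2 with an intensity trend, and 1 to 2 without 1 array (2 without replicate B of mix 1 or of mix 2). The count at least 2-fold higher under mix 2 was 1 to 2 without 1 array. In mix 1 against control, the replicate block changed no other call of a member probe set than that of NOTCH2 210756_s_at (adjusted p = 0.0397). Causes of these changes were not tested. The stricter filter and the dropping of shared probe sets also left fewer probe sets to count.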
